A study of Mus musculus with 23 samples.

Results

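Chemokines are small secreted or membrane-anchored proteins that guide leukocytes by binding G protein-coupled receptors, and their genes, with those of the receptors, were followed here in whole mouse ovaries of 3 inbred strains on 2 diets. The members were the genes whose symbol is Ccl, Cxcl, Cx3cl, Ccr, Cxcr or Cx3cr followed by a number, which gave 47 of the 24716 genes in the table, 31 ligands and 16 receptors. The table holds genes with an estimated count above 0 in at least 12 of the 23 libraries. Female NZO/HlLtJ, CAST/EiJ and C57BL/6J mice, all labelled WT, had been given a diet with 44% fat or one with 10% fat, each with added fiber, from 6 weeks of age, and ovaries were collected at 15 weeks. The series describes the first diet as high in sugar as well as fat, so the effects of fat and of sugar cannot be told apart. There were 4 libraries each of NZO/HlLtJ on 44% fat, NZO/HlLtJ on 10% fat, CAST/EiJ on 44% fat, CAST/EiJ on 10% fat and C57BL/6J on 44% fat, and 3 of C57BL/6J on 10% fat. NZO/HlLtJ is an obese strain prone to diabetes, CAST/EiJ is derived from wild mice, and C57BL/6J is the strain of the reference genome. The labels gave neither the stage of the oestrous cycle nor whether each library came from a separate mouse, so p-values measure only the spread between these libraries.

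Ligands fall into groups by the receptor they bind. Some are made steadily and place leukocytes in resting tissue, such as Cxcl12 for Cxcr4 or Ccl21a and Ccl19 for Ccr7, while others are induced in inflammation and draw monocytes through Ccr2, neutrophils through Cxcr2, eosinophils through Ccr3 or activated T and NK cells through Cxcr3. In the ovary, macrophages are the most numerous leukocytes of the stroma, and leukocytes enter around ovulation and during the regression of the corpus luteum.

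The 23 libraries held between 31938819 and 45850873 counts. Levels are given as CPM (counts per 1000000 counts), with library sizes scaled by the TMM method, and 20189 genes passed the filter on low counts. Granulosa markers summed to between 881 and 3620 CPM and oocyte markers to between 105 and 510 CPM per library, as in ovary. One library, CAST/EiJ 10% fat replicate 2, stood apart with 5180 CPM of oviduct epithelium markers, 1010 CPM of adipocyte markers and 538 CPM of lymphatic endothelium markers, and C57BL/6J 44% fat replicate 1 held 228 CPM of oviduct markers, against 5.49 to 53 CPM in the other libraries.

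Of the 47 members, 29 averaged at least 1 CPM in at least 1 of the 6 groups, 21 ligands and 8 receptors, and 17 did so in all 6 groups, 11 ligands and 6 receptors. Per kb of merged exons, Ccl21a, a ligand of Ccr7, was highest at a mean over groups of 110.0 CPM per kb. Cxcl14, a chemokine of epithelia and stroma, followed at 42.6, Cxcl12 at 20.4 and its receptor Cxcr4 at 9.35 CPM per kb. The myeloid ligand Ccl6 stood at 5.96, the membrane-anchored ligand Cxcl16 at 5.58 and the fractalkine Cx3cl1 at 4.49 CPM per kb. Cx3cr1, the fractalkine receptor of monocytes and macrophages, was the second receptor in this order at 3.03 CPM per kb.

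Another 18 members stayed under 1 CPM in the mean of every group, and 13 of them passed the filter. The ligands among them were Cxcl13 with a highest group mean of 0.911 CPM, Ccl3 with 0.842, Ccl24 with 0.69, Ccl4 with 0.549, Ccl19 with 0.546, Cxcl11 with 0.543, Cxcl2 with 0.421 and Ccl17 with 0.329 CPM, while the estimated counts of Ccl21b and Ccl27b rounded to 0 in all 23 libraries. The receptors among them were Ccr7 with a highest group mean of 0.809 CPM, Cxcr2 with 0.614, Ccr9 with 0.522, Ccr3 with 0.31, Ccr4 with 0.261, Cxcr5 with 0.217, Ccr6 with 0.0753 and Ccr1l1 with 0.0492 CPM. The inflammatory neutrophil receptor Cxcr2 and the lymph node homing receptor Ccr7 were therefore present at a low level only. Ccl21b, Ccl27b, Ccr1l1, Ccr6 and Cxcr5 did not pass the filter and were not tested, which left 42 members. A member near the filter can have passed through the group in which it was high, so counts over the 42 are descriptions.

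**Figure D1:**
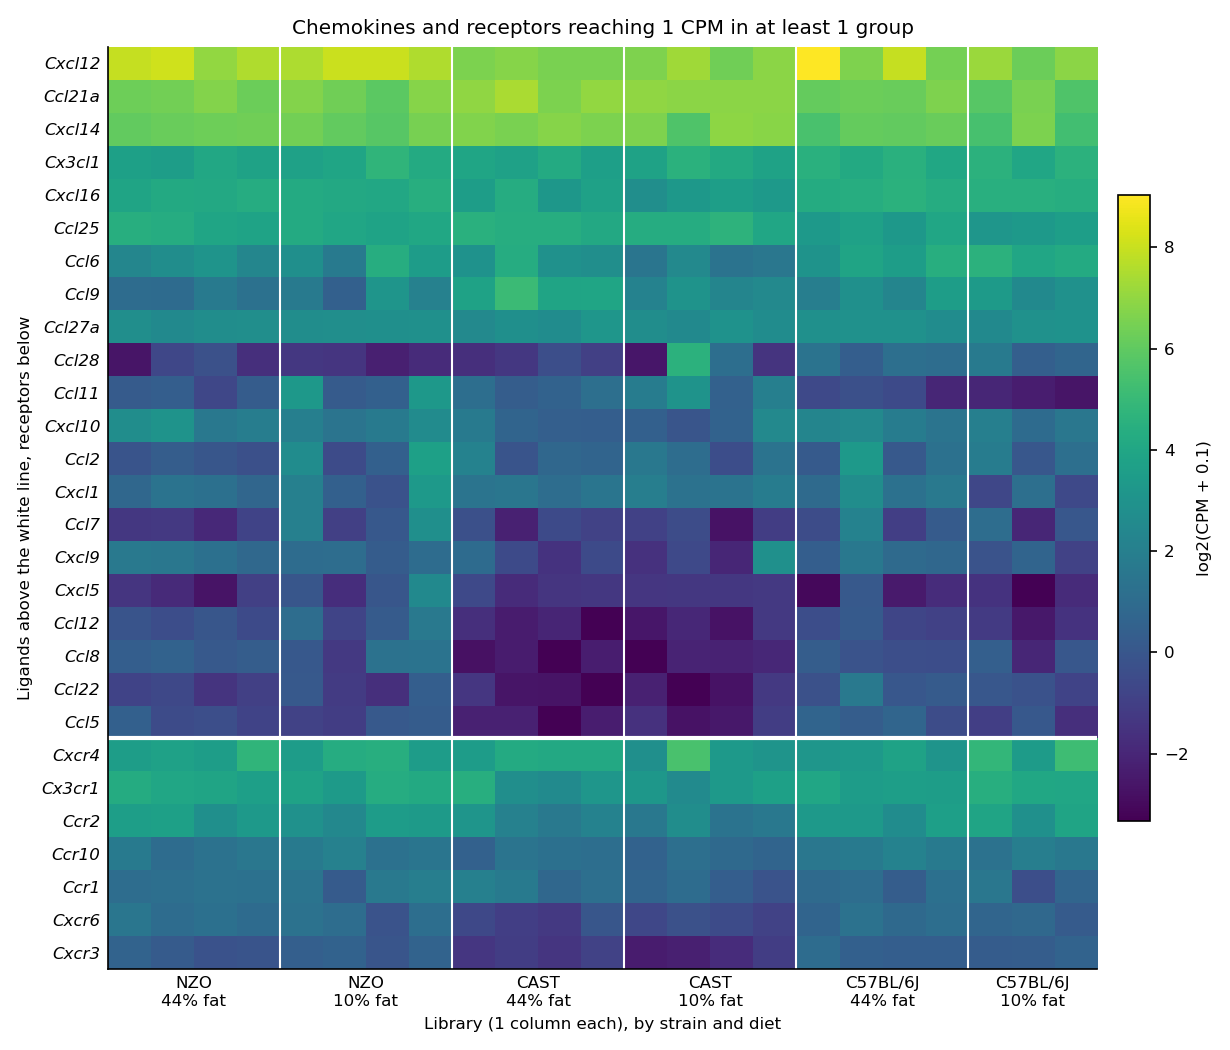
Heat map of log2(CPM + 0.1) for 28 members that averaged at least 1 CPM in at least 1 group, 1 column per library and 1 row per gene, ligands above the white line and receptors below, each ordered by highest group mean. Cxcl12, Ccl21a and Cxcl14 are brightest in every library, and the rows of Ccl8, Ccl5, Ccl12, Cxcr3 and Cxcr6 are darker in the 8 CAST/EiJ libraries.

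Of the members, 5 share more than 10% of their 50-base stretches with other genes, so their reads may have been divided among copies. These were Ccl21b at 100%, Ccl27b at 98.1%, Ccl21a at 71.6%, Ccl19 at 52% and Ccl27a at 45% of stretches. Exons of 8 members overlap another gene, mostly on the opposite strand, and whether counting used strand is not given in the sources used here. Among the genes described below these are Ccl25 with Elavl1, Cxcl16 with Zmynd15, Cxcl10 with Art3, Cxcl11 with Gm2673, Cx3cr1 with Gm33858 and Ccl27a with Il11ra1. The overlap covers 1582 of 3794 exon bases in Cxcl11 and 8 bases in Ccl27a.

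The strain comparisons held all the edgeR calls among members. Averaged over diets, 28 of the 42 members passed edgeR's quasi-likelihood test at an adjusted p under 0.05 in at least 1 of the 3 strain comparisons, 20 ligands and 8 receptors. The comparisons share their libraries in pairs and are not independent. The share of all genes that passed in at least 1 of them was not computed, so the count of 28 is a description. Between CAST/EiJ and C57BL/6J 21 of 42 members passed, 6 higher and 15 lower in CAST/EiJ, where 46.8% of all genes tested passed, 23.2% higher and 23.6% lower. Between NZO/HlLtJ and CAST/EiJ 21 members passed, 16 higher and 5 lower in NZO/HlLtJ, where 48.1% of all genes passed, 23.4% higher and 24.8% lower. Between NZO/HlLtJ and C57BL/6J 7 members passed, 4 higher and 3 lower in NZO/HlLtJ, against 23.9% of all genes, 11.6% higher and 12.3% lower, and by limma with library weights 12 members passed there, against 39.2% of all genes. The share of members called was thus near that of all genes in the comparisons with CAST/EiJ, and the directions were uneven where those of all genes were not.

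The median log2 fold change of the 42 members was -0.66 for CAST/EiJ minus C57BL/6J, against 0.01 over all genes, and 0.64 for NZO/HlLtJ minus CAST/EiJ, against -0.02. For NZO/HlLtJ minus C57BL/6J it was 0.02, against 0 over all genes. Of 13 receptors tested, 6 were lower in CAST/EiJ than in C57BL/6J and 0 higher, and 8 were higher in NZO/HlLtJ than in CAST/EiJ and 0 lower. Between NZO/HlLtJ and C57BL/6J 0 receptors passed, against 23.9% of all genes. At an unadjusted edgeR p under 0.05 there were also 0 receptors, against 35.6% of all genes. Altogether 12 members were lower in CAST/EiJ than in both other strains, 6 of them receptors, among which were Cxcr3, Cxcr6, Ccr2, Ccr3 and Ccr10, and 6 of them the ligands Ccl5, Ccl8, Ccl12, Ccl19, Ccl22 and Cxcl16. Ccl12 alone passed in all 3 strain comparisons. The shares of all genes that were lower in CAST/EiJ than in both other strains, or passed in all 3 comparisons, were not computed. These counts are therefore descriptions, and the comparisons with CAST/EiJ use the same CAST/EiJ libraries. The part that divergence of CAST/EiJ from the reference sequence had in these counts was not tested, and in bulk tissue fewer cells of a type and less RNA per cell cannot be told apart. Strain levels with an error are means ± SD over 8 NZO/HlLtJ, 8 CAST/EiJ and 7 C57BL/6J libraries, differences are log2 fold changes ± SE, and values in brackets after a difference are edgeR's adjusted p.

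**Figure D2:**
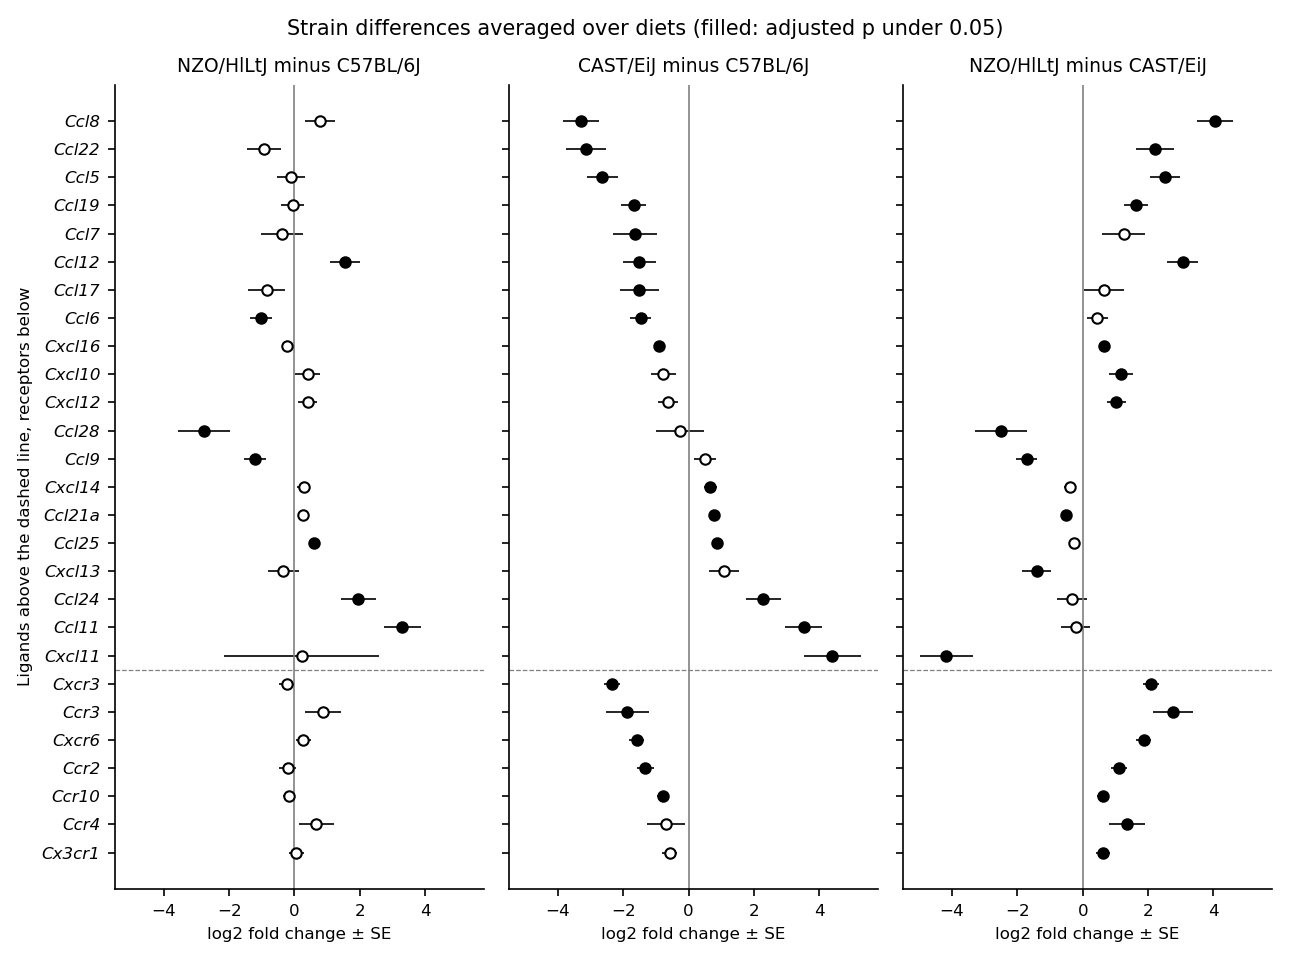
Log2 fold changes with standard errors, averaged over diets, of 27 members that passed in at least 1 strain comparison, ligands above the dashed line and receptors below, filled where the adjusted p was under 0.05. In the middle panel the receptors lie left of 0, in the right panel right of 0, and in the left panel around 0.

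Cxcr3, which activated T and NK cells carry and which binds the interferon-induced ligands Cxcl9, Cxcl10 and Cxcl11, had the smallest p among the members. It ran from 0.774 to 1.43 CPM with a median of 1.14 in the 8 NZO/HlLtJ libraries, from 0.0938 to 0.45 with a median of 0.286 in the 8 CAST/EiJ libraries, and from 1.12 to 1.95 with a median of 1.21 in the 7 C57BL/6J libraries. CAST/EiJ did not overlap either other strain. The log2 fold change was -2.34 ± 0.25 (SE) for CAST/EiJ minus C57BL/6J, with an edgeR adjusted p of 2.33e-07, and 2.09 ± 0.25 for NZO/HlLtJ minus CAST/EiJ, with an adjusted p of 7.13e-07. Of its ligands, Cxcl10 was lower in CAST/EiJ than in NZO/HlLtJ as well. Cxcl10 averaged 4.62 ± 1.96 CPM (SD, n = 8) in NZO/HlLtJ, 2.04 ± 1.61 (n = 8) in CAST/EiJ and 3.6 ± 1.27 (n = 7) in C57BL/6J, and was higher in NZO/HlLtJ than in CAST/EiJ by 1.17 ± 0.36 on the log2 scale (edgeR adjusted p of 0.011). Cxcl9 passed in no strain comparison, at 2.12 ± 0.647, 1.44 ± 2.42 and 1.48 ± 0.807 CPM in the same order of strains.

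Cxcl11 went the other way, from very few counts in the low strains, so the size of its fold change depends on the method. The 8 NZO/HlLtJ libraries together held 8 counts of it, the 8 CAST/EiJ libraries 122 and the 7 C57BL/6J libraries 4. Its level was 0 to 0.0665 CPM in NZO/HlLtJ, 0.0248 to 1.21 in CAST/EiJ and 0 to 0.0496 in C57BL/6J, with 3 libraries of NZO/HlLtJ and 4 of C57BL/6J at 0. The lowest CAST/EiJ libraries overlapped both other strains. The log2 fold change was 4.4 ± 0.88 for CAST/EiJ minus C57BL/6J (edgeR adjusted p of 0.000341) and -4.17 ± 0.81 for NZO/HlLtJ minus CAST/EiJ (0.000268), and they were 5.74 without C57BL/6J 10% fat replicate 1 and -4.91 without NZO/HlLtJ 10% fat replicate 1. By limma with library weights they were 2.97 and -2.55, still past the threshold. No NZO/HlLtJ or C57BL/6J library reached the filter's minimum count of 10 for Cxcl11. It was thus tested only because it was high in CAST/EiJ, and its p-values are descriptions. GENCODE M21 annotates this gene, on chromosome 5 from 92359544 to 92365485 of GRCm38, as a polymorphic pseudogene. The C57BL/6 allele is known to carry a frameshift that removes the functional protein.

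Cxcr6, a receptor of T and NKT cells, ran from 0.782 to 2.82 CPM with a median of 2.04 in NZO/HlLtJ, from 0.308 to 0.874 with a median of 0.526 in CAST/EiJ, and from 1.06 to 2.42 with a median of 1.72 in C57BL/6J. Only NZO/HlLtJ 10% fat replicate 3, at 0.782 CPM, lay within the CAST/EiJ range. The log2 fold change was -1.59 ± 0.24 for CAST/EiJ minus C57BL/6J (edgeR adjusted p of 2.04e-05) and 1.86 ± 0.24 for NZO/HlLtJ minus CAST/EiJ (2.02e-06). Its membrane-anchored ligand Cxcl16 was lower in CAST/EiJ too, with 14.5 to 21.2 CPM and a median of 17.8 in NZO/HlLtJ, 6.78 to 19.7 with a median of 10.8 in CAST/EiJ and 19.1 to 23.4 with a median of 20.7 in C57BL/6J. The ranges overlapped through CAST/EiJ 44% fat replicate 2, at 19.7 CPM. Cxcl16 differed by -0.90 ± 0.13 between CAST/EiJ and C57BL/6J (edgeR adjusted p of 1.29e-05) and by 0.66 ± 0.13 between NZO/HlLtJ and CAST/EiJ (0.000231).

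Markers of T and NK cells were lower in CAST/EiJ in the same libraries. All 12 markers of the list were tested, and 11 were lower in CAST/EiJ than in C57BL/6J, with a median log2 fold change of -1.94, and 11 were higher in NZO/HlLtJ than in CAST/EiJ, with a median of 2.09. Of all genes tested, 23.6% were lower in CAST/EiJ than in C57BL/6J and 23.4% higher in NZO/HlLtJ than in CAST/EiJ. The summed level of the 12 markers was 10.1 to 15.6 CPM in NZO/HlLtJ, 3.26 to 6.18 in CAST/EiJ and 9.46 to 13.7 in C57BL/6J. The part of T and NK cells in the differences of Cxcr3, Cxcr6 and Ccl5 was not tested.

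Ccl5, a ligand that T and NK cells and platelets make, ran from 0.366 to 1.27 CPM with a median of 0.647 in NZO/HlLtJ, from 0 to 0.368 with a median of 0.111 in CAST/EiJ and from 0.218 to 1.55 with a median of 0.957 in C57BL/6J. The upper CAST/EiJ libraries overlapped the lowest of the other strains. It differed by -2.64 ± 0.48 on the log2 scale between CAST/EiJ and C57BL/6J (edgeR adjusted p of 0.000128) and by 2.52 ± 0.47 between NZO/HlLtJ and CAST/EiJ (0.000152). Ccl3 and Ccl4, related ligands made by activated leukocytes, and the receptor Ccr1 passed in no strain comparison.

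**Figure D3:**
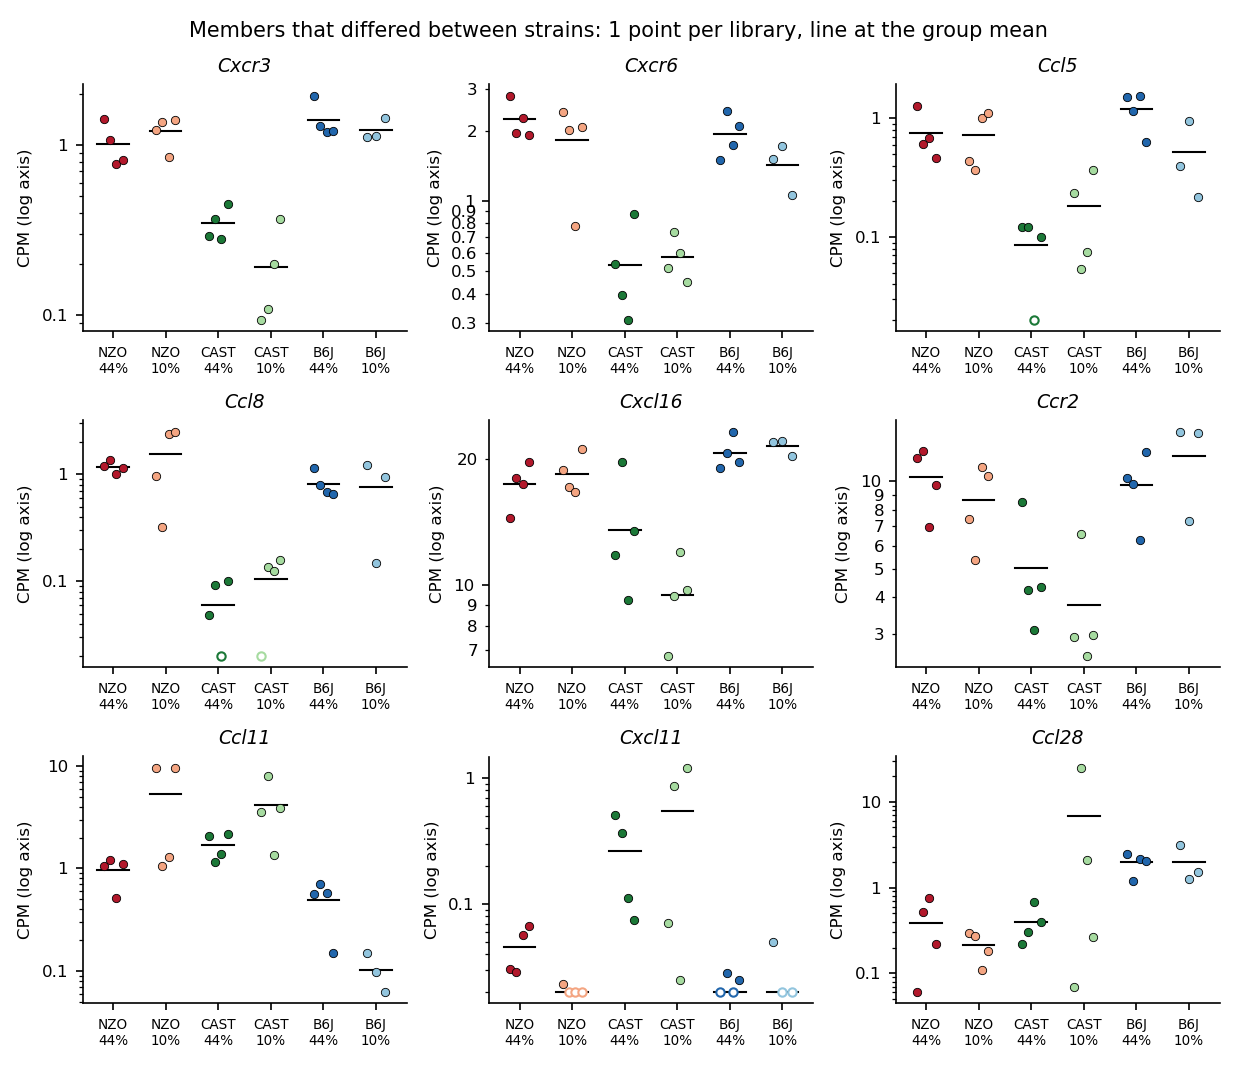
CPM on a log axis of 9 members in each library, with a line at the group mean. Open symbols are libraries under 0.02 CPM, drawn at 0.02, as is a line for a mean under it. The 8 CAST/EiJ libraries lie lowest for Cxcr3 and hold the highest Cxcl11, Ccl11 is lowest in C57BL/6J, and 1 CAST/EiJ 10% fat library stands alone at 24.8 CPM for Ccl28.

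The ligands related to the monocyte chemoattractant Ccl2 divided by gene. Ccl8 ran from 0.32 to 2.51 CPM with a median of 1.18 in NZO/HlLtJ, from 0 to 0.158 with a median of 0.0957 in CAST/EiJ and from 0.147 to 1.22 with a median of 0.789 in C57BL/6J. NZO/HlLtJ and CAST/EiJ did not overlap, and 1 C57BL/6J library lay within the CAST/EiJ range. The log2 fold change was -3.28 ± 0.55 for CAST/EiJ minus C57BL/6J (edgeR adjusted p of 6.17e-05) and 4.05 ± 0.54 for NZO/HlLtJ minus CAST/EiJ (3.97e-06). Ccl12, a rodent ligand of Ccr2, ran from 0.481 to 3.04 CPM with a median of 0.853 in NZO/HlLtJ, from 0 to 0.315 with a median of 0.116 in CAST/EiJ and from 0.0736 to 1.04 with a median of 0.427 in C57BL/6J. All NZO/HlLtJ libraries lay above all CAST/EiJ libraries. It differed by 1.55 ± 0.47 between NZO/HlLtJ and C57BL/6J (edgeR adjusted p of 0.0202), by -1.51 ± 0.51 between CAST/EiJ and C57BL/6J (0.02) and by 3.06 ± 0.48 between NZO/HlLtJ and CAST/EiJ (2.89e-05). The comparison of NZO/HlLtJ with C57BL/6J lost its call without NZO/HlLtJ 10% fat replicate 4 (0.0532), and that of CAST/EiJ with C57BL/6J without C57BL/6J 10% fat replicate 1 (0.0764).

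Ccl2 itself passed in no strain comparison, at 3.06 ± 4.35 CPM in NZO/HlLtJ, 2.07 ± 1.22 in CAST/EiJ and 3.04 ± 3.33 in C57BL/6J. Ccl7 was lower in CAST/EiJ than in C57BL/6J by 1.64 ± 0.66 on the log2 scale (edgeR adjusted p of 0.0473), a call that 19 of 32 other settings did not make, and without C57BL/6J 44% fat replicate 2 the difference was -1.04. Ccr2, the receptor of Ccl2 and Ccl7 on inflammatory monocytes, ran from 5.38 to 12.7 CPM with a median of 10.1 in NZO/HlLtJ, from 2.51 to 8.52 with a median of 3.66 in CAST/EiJ and from 6.28 to 14.8 with a median of 10.3 in C57BL/6J. The ranges overlapped. It differed by -1.33 ± 0.26 between CAST/EiJ and C57BL/6J (edgeR adjusted p of 0.000298) and by 1.12 ± 0.25 between NZO/HlLtJ and CAST/EiJ (0.0011). Cx3cr1 averaged 15.6 ± 3.4, 10.1 ± 5.03 and 14.9 ± 3.57 CPM in NZO/HlLtJ, CAST/EiJ and C57BL/6J, and was higher in NZO/HlLtJ than in CAST/EiJ by 0.62 ± 0.22 (0.0281), a call that 10 of 32 other settings did not make. Monocyte markers summed to 166 to 415 CPM in NZO/HlLtJ, 162 to 1340 in CAST/EiJ and 194 to 383 in C57BL/6J, and macrophage markers to 230 to 344, 188 to 567 and 308 to 513 CPM. Without CAST/EiJ 10% fat replicate 2, the library rich in oviduct markers, the CAST/EiJ monocyte sums ran up to 346 CPM. Both lists overlapped between strains in their sums. Between CAST/EiJ and C57BL/6J, however, 6 of 10 macrophage markers were lower and 1 higher, with a median log2 fold change of -0.45, and 2 of 4 monocyte markers were lower and 0 higher, with a median of -0.93. Between NZO/HlLtJ and CAST/EiJ 4 macrophage markers were higher and 2 lower, with a median of -0.07, and 1 monocyte marker was higher and 1 lower, with a median of -0.48. Of all genes, 46.8% passed between CAST/EiJ and C57BL/6J and 48.1% between NZO/HlLtJ and CAST/EiJ. The part of monocytes and macrophages was not tested.

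The eotaxins, which attract eosinophils through Ccr3, had another order and were lowest in C57BL/6J. Ccl11 ran from 0.516 to 9.6 CPM with a median of 1.16 in NZO/HlLtJ, from 1.16 to 7.96 with a median of 2.12 in CAST/EiJ and from 0.0624 to 0.704 with a median of 0.151 in C57BL/6J. Every CAST/EiJ library was above every C57BL/6J library, and 1 NZO/HlLtJ library lay within the C57BL/6J range. The log2 fold change was 3.30 ± 0.56 for NZO/HlLtJ minus C57BL/6J (edgeR adjusted p of 0.000184) and 3.52 ± 0.56 for CAST/EiJ minus C57BL/6J (3.11e-05). The NZO/HlLtJ value was 2.2 without NZO/HlLtJ 10% fat replicates 1 and 4, which held 9.6 and 9.58 CPM. Ccl24 averaged 0.336 ± 0.222 CPM in NZO/HlLtJ, 0.469 ± 0.473 in CAST/EiJ and 0.0823 ± 0.037 in C57BL/6J, with log2 differences of 1.96 ± 0.54 for NZO/HlLtJ (0.0113) and 2.29 ± 0.54 for CAST/EiJ (0.00158) against C57BL/6J. Without the same pair of NZO/HlLtJ libraries the NZO/HlLtJ value was 1.13, with an edgeR adjusted p of 0.163. Limma on the deposited log2 values did not make the NZO/HlLtJ call of Ccl24 either. Their receptor Ccr3 did not follow, at 0.285 ± 0.156 CPM in NZO/HlLtJ, 0.0407 ± 0.0391 in CAST/EiJ and 0.152 ± 0.118 in C57BL/6J. It was lower in CAST/EiJ than in C57BL/6J by 1.88 ± 0.66 (0.0235), a call lost with the series of sample numbers as a term (-1.7, 0.0599), by limma on the deposited log2 values (0.0546) and without C57BL/6J 10% fat replicate 1 (-1.21, 0.197), and higher in NZO/HlLtJ than in CAST/EiJ by 2.76 ± 0.62 (0.000989). Markers of eosinophils and mast cells, of which 5 of 8 were tested, summed to 112 to 200 CPM in NZO/HlLtJ, 40.2 to 130 in CAST/EiJ and 40.5 to 108 in C57BL/6J. Of the 5, 3 were lower in CAST/EiJ than in C57BL/6J and 0 higher, with a median log2 fold change of -2.8, and 3 were higher in NZO/HlLtJ than in CAST/EiJ, with a median of 1.3. Between NZO/HlLtJ and C57BL/6J 1 was higher and 1 lower, with a median of -1.17, opposite in direction to the sums. A sum follows its most abundant genes, and this list includes Kit, so no number of eosinophils or mast cells is read from it. Of all genes, 46.8%, 48.1% and 23.9% passed in these comparisons, in this order. The part of these cells in the eotaxins and Ccr3 was not tested.

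Ccl9 and Ccl6, rodent ligands of Ccr1 that myeloid cells make, were lower in NZO/HlLtJ than in C57BL/6J. Ccl9 ran from 1.26 to 8.55 CPM with a median of 2.73 in NZO/HlLtJ, from 4.34 to 34.2 with a median of 10.8 in CAST/EiJ and from 3.78 to 11.5 with a median of 7.35 in C57BL/6J. The ranges overlapped, and the highest values were all from CAST/EiJ on 44% fat. It differed by -1.21 ± 0.33 between NZO/HlLtJ and C57BL/6J (edgeR adjusted p of 0.0108) and by -1.72 ± 0.32 between NZO/HlLtJ and CAST/EiJ (0.000191). Ccl6 averaged 8.34 ± 5.5 CPM in NZO/HlLtJ, 6.95 ± 5.65 in CAST/EiJ and 16.4 ± 5.63 in C57BL/6J, and was lower than in C57BL/6J in NZO/HlLtJ by 1.03 ± 0.33 (0.0279) and in CAST/EiJ by 1.47 ± 0.33 (0.00125). The NZO/HlLtJ call of Ccl6 was lost when any of 5 libraries was left out, NZO/HlLtJ 44% fat replicates 1 and 4, NZO/HlLtJ 10% fat replicate 1, C57BL/6J 44% fat replicate 4 and C57BL/6J 10% fat replicate 1, with adjusted p of 0.0546, 0.0501, 0.0579, 0.0594 and 0.0801 in this order. Of 10 macrophage markers, 5 were lower in NZO/HlLtJ than in C57BL/6J and 0 higher, against 12.3% and 11.6% of all genes. Their median log2 fold change was -0.51, and the part of macrophages in Ccl9 and Ccl6 was not tested.

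Ligands of dendritic cells and lymphoid tissue also differed. Ccl22, which dendritic cells make and which binds Ccr4, ran from 0.217 to 1.2 CPM with a median of 0.427 in NZO/HlLtJ, from 0 to 0.315 with a median of 0.0585 in CAST/EiJ and from 0.468 to 3.04 with a median of 0.913 in C57BL/6J. CAST/EiJ and C57BL/6J did not overlap. It differed by -3.14 ± 0.60 between CAST/EiJ and C57BL/6J (edgeR adjusted p of 0.000215) and by 2.21 ± 0.59 between NZO/HlLtJ and CAST/EiJ (0.0039), and by -3.85 and 2.92 without CAST/EiJ 44% fat replicate 1. Ccl17, the other Ccr4 ligand, was lower in CAST/EiJ than in C57BL/6J by 1.51 ± 0.59 (0.0399), a call that 11 of 31 other settings did not make. Of 6 dendritic cell markers, 4 were lower in CAST/EiJ than in C57BL/6J and 0 higher, with a median log2 fold change of -0.83, and 3 were higher and 1 lower in NZO/HlLtJ than in CAST/EiJ, with a median of 0.36. Of all genes, 46.8% passed in the first of these comparisons and 48.1% in the second. The part of dendritic cells in Ccl22 and Ccl17 was not tested. Ccr4 was higher in NZO/HlLtJ than in CAST/EiJ by 1.36 ± 0.55 (0.0455), a call that 20 of 32 other settings did not make. Cxcl13, the B cell chemoattractant, was lower in NZO/HlLtJ than in CAST/EiJ by 1.41 ± 0.45 (0.0132), a call lost by limma with library weights (-1.04, 0.0528).

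Ccl25, Cxcl14 and Cxcl12 also differed between strains. Ccl25, the ligand of Ccr9 in thymus and gut, ran from 14.1 to 21 CPM with a median of 16 in NZO/HlLtJ, from 15.8 to 25.1 with a median of 20.3 in CAST/EiJ and from 8.86 to 15.8 with a median of 10.1 in C57BL/6J. It was higher than in C57BL/6J by 0.60 ± 0.13 in NZO/HlLtJ (edgeR adjusted p of 0.00169) and by 0.86 ± 0.13 in CAST/EiJ (1.53e-05). Cxcl14 averaged 74.5 ± 10.7 CPM in NZO/HlLtJ, 97.8 ± 21.7 in CAST/EiJ and 61.8 ± 20.7 in C57BL/6J, and was higher in CAST/EiJ than in C57BL/6J by 0.67 ± 0.20 (0.00821). Cxcl12 averaged 218 ± 51.9 CPM in NZO/HlLtJ, 107 ± 23.1 in CAST/EiJ and 185 ± 159 in C57BL/6J, and was higher in NZO/HlLtJ than in CAST/EiJ by 1.03 ± 0.29 (0.00568). The C57BL/6J mean rested on replicate 1 of the 44% fat group, the library with 228 CPM of oviduct markers, at 522 CPM of Cxcl12. Its receptor Cxcr4 passed in no strain comparison, at 16 ± 6.11, 16.9 ± 12.3 and 16.8 ± 11.1 CPM in NZO/HlLtJ, CAST/EiJ and C57BL/6J, and neither did Cx3cl1, Ccl27a, Cxcl1 or Cxcl5.

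Ccl21a averaged 88 ± 18.1 CPM in NZO/HlLtJ, 126 ± 23.3 in CAST/EiJ and 74.1 ± 18.4 in C57BL/6J, with log2 differences of 0.79 ± 0.16 for CAST/EiJ minus C57BL/6J (edgeR adjusted p of 0.000355) and -0.52 ± 0.15 for NZO/HlLtJ minus CAST/EiJ (0.00724). It shares most of its sequence with Gm21541, whose level was 2.89 ± 1.24 CPM in NZO/HlLtJ, 76.8 ± 12 in CAST/EiJ and 72.5 ± 17.9 in C57BL/6J, a log2 difference of -4.65 ± 0.24 for NZO/HlLtJ minus C57BL/6J (3.09e-11). The sum of Ccl21a and its copies was 61.2 to 115 CPM in NZO/HlLtJ, 165 to 277 in CAST/EiJ and 97.6 to 196 in C57BL/6J. On this sum NZO/HlLtJ was the lowest strain, whereas on Ccl21a alone it lay between the others. Ccl19, the other Ccr7 ligand, was lower in CAST/EiJ than in C57BL/6J by 1.68 ± 0.38 (0.00118), and its copy Gm2564 by 0.78 ± 0.26 (0.0168). Ccl27a, a skin ligand of Ccr10, averaged 6.6 ± 0.451 CPM in NZO/HlLtJ, 6.74 ± 1.13 in CAST/EiJ and 7.11 ± 0.749 in C57BL/6J, while the sum with its copies was 13 ± 1.31, 9.53 ± 1.4 and 9.81 ± 0.73 CPM in the same order. The copies were looked at after the data were seen.

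Ccl28, a mucosal ligand of Ccr10, ran from 0.0606 to 0.745 CPM with a median of 0.248 in NZO/HlLtJ and from 1.18 to 3.15 with a median of 2.01 in C57BL/6J, with no overlap. It differed by -2.76 ± 0.80 between these strains (edgeR adjusted p of 0.0164), a call lost by limma on the deposited log2 values. In CAST/EiJ it ran from 0.0704 to 24.8 CPM with a median of 0.352, and the highest value came from the library with 5180 CPM of oviduct markers. The difference of NZO/HlLtJ from CAST/EiJ was -2.50 ± 0.80 (0.0144), and -0.96 with an adjusted p of 0.155 without that library. The call was also lost with the series of sample numbers as a term (-2.17, 0.0577), by limma with library weights (-0.62, 0.421) and by limma on the deposited log2 values (0.194). Ccr10 averaged 2.87 ± 0.688, 1.88 ± 0.463 and 3.26 ± 0.638 CPM in NZO/HlLtJ, CAST/EiJ and C57BL/6J, and was lower in CAST/EiJ than in C57BL/6J by 0.79 ± 0.18 (0.00105) and higher in NZO/HlLtJ than in CAST/EiJ by 0.61 ± 0.17 (0.00607).

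The numbers in the sample labels fall into 3 series, whose meaning the labels do not give and which were spread unevenly over groups. The series that begins with 82 held no NZO/HlLtJ 44% fat library, and the one that begins with 90 held no NZO/HlLtJ or C57BL/6J 10% fat library and 1 C57BL/6J library in all. Strain differences within these 2 series therefore also compare unequal mixes of diets. Within every series the strain difference kept its sign for 5 of the 7 members called between NZO/HlLtJ and C57BL/6J, the exceptions being Ccl25 and Ccl6, for 20 of the 21 between CAST/EiJ and C57BL/6J, the exception being Ccr3, and for 20 of the 21 between NZO/HlLtJ and CAST/EiJ, the exception being Ccl28. In the series that went against the rest the differences in log2 CPM were -0.12 for Ccl25, 0.02 for Ccl6, 0.14 for Ccr3 and 0.69 for Ccl28.

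The diet comparisons asked whether the 44% fat diet changed these genes in any strain. None of the 42 members passed edgeR between 44% and 10% fat. In NZO/HlLtJ 0 members passed, against 0% of all genes, with 5 members and 3.52% of all genes at an unadjusted p under 0.05. In CAST/EiJ 0 members passed, against 0.624% of all genes, with 8 members and 13.5% of all genes at that level. In C57BL/6J 0 members passed, against 0% of all genes, with 5 members and 8.83% of all genes at that level. Averaged over strains 0 passed, against 0% of all genes, with 1 member and 5.89% of all genes. By limma with library weights 0, 1, 1 and 0 members passed in these comparisons, in the order given, against 0.00991%, 1.09%, 3.92% and 0.00495% of all genes, and by DESeq2 0, 3, 0 and 0, against 0.0198%, 3.04%, 0.337% and 0.0941%.

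In NZO/HlLtJ the members with the smallest p were inflammatory ligands that were high in only some 10% fat libraries. Ccl11 stood at 1.06, 1.21, 0.516 and 1.11 CPM in the NZO/HlLtJ 44% fat libraries, against 9.6, 1.05, 1.28 and 9.58 CPM in the 10% fat libraries. Ccl7 stood at 0.303, 0.317, 0.172 and 0.465 CPM on 44% fat, against 4.02, 0.412, 0.955 and 6.89 CPM on 10% fat. Cxcl5, a neutrophil attractant, stood at 0.273, 0.173, 0.0573 and 0.399 CPM on 44% fat, against 0.896, 0.206, 0.89 and 5.63 CPM on 10% fat. Replicates 1 and 4 of the 10% fat group were highest in each, and replicate 2 lay within the 44% fat range for all 3. The log2 fold changes were -2.46 ± 0.65 for Ccl11, -3.26 ± 0.95 for Ccl7 and -3.03 ± 0.96 for Cxcl5, each with an edgeR adjusted p of 1. Leaving out this pair, a choice made after seeing the data, gave -0.26, -1.10 and -1.25, and without replicate 4 alone Ccl7 was at -2.49 and Cxcl5 at -1.53.

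These libraries were also high in other ligands of inflammation, named here after their values were seen. Ccl2 was at 0.818, 1.13, 0.888 and 0.709 CPM in NZO/HlLtJ on 44% fat and at 6.23, 0.618, 1.28 and 12.8 CPM on 10% fat. Cxcl1, the neutrophil attractant, was at 1.64, 2.51, 2.29 and 1.57 CPM on 44% fat and at 4.11, 1.28, 0.76 and 10.1 CPM on 10% fat, and its neighbour Cxcl2 at 0.0303, 0.0577, 0.201 and 0.155 CPM on 44% fat and at 0.62, 0.0458, 0.0217 and 0.995 CPM on 10% fat. Replicates 1 and 4 of the 10% fat group were the highest of the 8 NZO/HlLtJ libraries in all 3. In C57BL/6J, 44% fat replicate 2 was the highest of its group in the same genes, with 10.3 CPM of Ccl2, 4.42 of Ccl7, 6.59 of Cxcl1 and 0.789 of Cxcl2. The interferon-induced ligands were high elsewhere. CAST/EiJ 10% fat replicate 4 held 7.28 CPM of Cxcl9, 5.55 of Cxcl10 and 1.21 of Cxcl11, against 0.149 to 0.57, 0.842 to 1.37 and 0.0248 to 0.869 CPM in the other libraries of that group. Neutrophil markers, of which 3 of 7 were tested, were at 3.97 and 9.64 CPM in NZO/HlLtJ 10% fat replicates 1 and 4, and at 3.09 and 4.49 CPM in replicates 2 and 3, and their part was not tested.

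**Figure D4:**
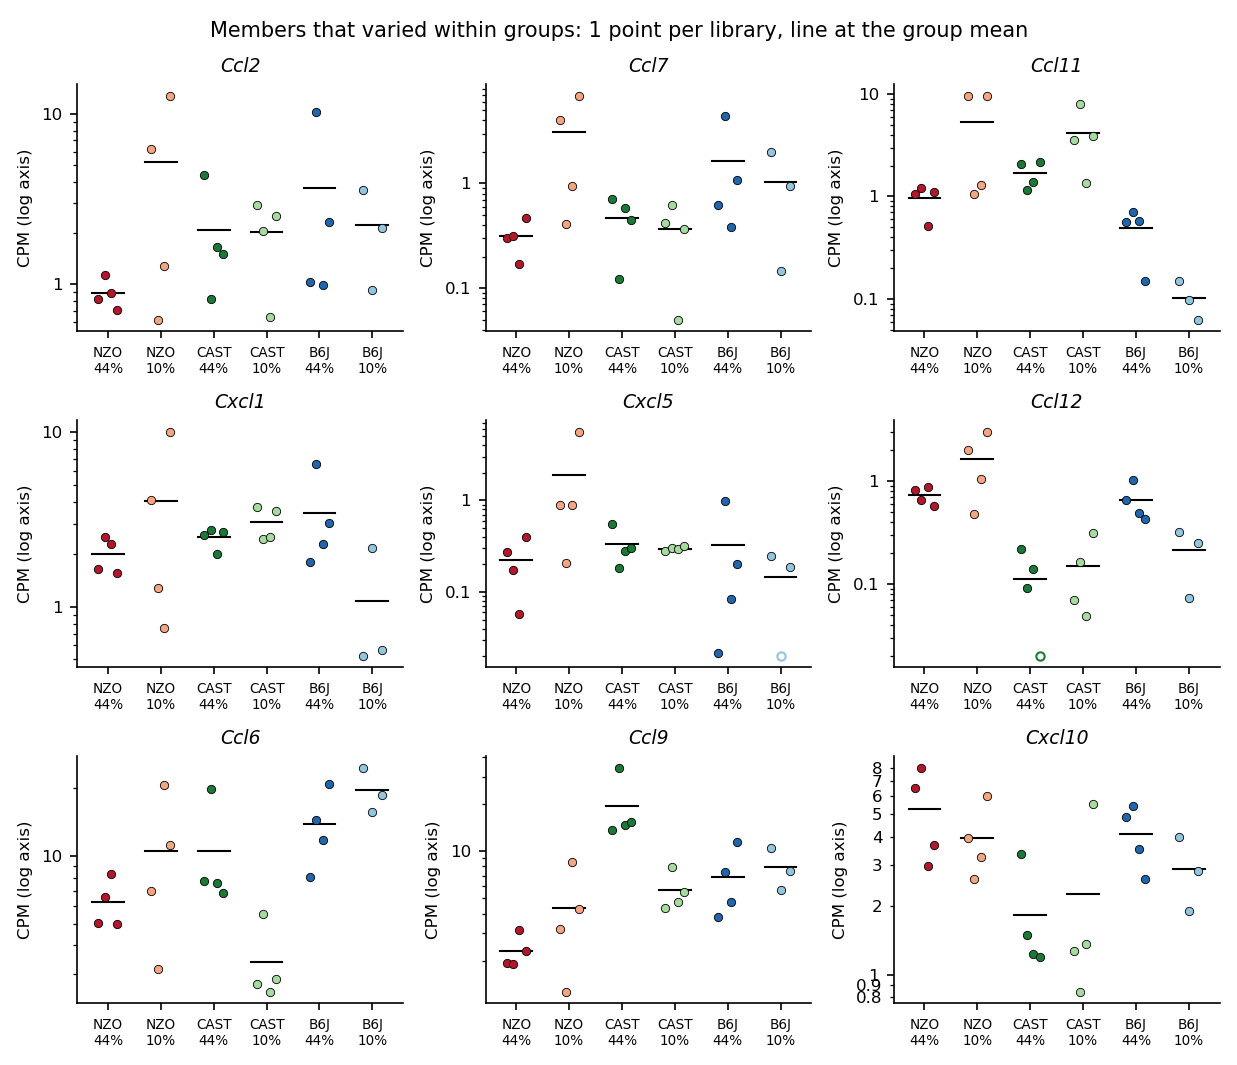
CPM on a log axis of 9 members in each library, with a line at the group mean. Open symbols are libraries under 0.02 CPM, drawn at 0.02. In Ccl2, Ccl7, Ccl11 and Cxcl1 a pair of NZO/HlLtJ 10% fat libraries lies above the other 2, and in Ccl9 the 4 CAST/EiJ 44% fat libraries lie above the 4 on 10% fat.

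The promoters of 4 of these ligands are shown because their genes varied within groups as a neutrophil-attracting pair, Cxcl1 and Cxcl2, and an interferon-induced pair, Cxcl9 and Cxcl10. Each is the 250 bases before the annotated start in RefSeq's table for GRCm38.p6, in the direction of the gene, for Cxcl1 chr5:90890995-90891244 on the plus strand, Cxcl2 chr5:90903649-90903898 on the plus strand, Cxcl9 chr5:92328080-92328329 on the minus strand and Cxcl10 chr5:92348890-92349139 on the minus strand. Capitals mark matches on either strand to a chosen form of the kappaB element, GGANTTTCC, which is bound by NF-kappaB. They also mark matches to a chosen form of the interferon-stimulated element, GAAANNGAA, which is bound by IRF proteins. Other forms were not searched for, so similar letters such as gggatttcc in Cxcl9 and gggacttccc in Cxcl10 stay in lower case.
Cxcl1: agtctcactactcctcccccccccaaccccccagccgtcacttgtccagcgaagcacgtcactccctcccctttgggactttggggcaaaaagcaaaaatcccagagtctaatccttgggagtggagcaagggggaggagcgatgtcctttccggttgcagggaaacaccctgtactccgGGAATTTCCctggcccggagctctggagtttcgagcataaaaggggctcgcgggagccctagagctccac
Cxcl2: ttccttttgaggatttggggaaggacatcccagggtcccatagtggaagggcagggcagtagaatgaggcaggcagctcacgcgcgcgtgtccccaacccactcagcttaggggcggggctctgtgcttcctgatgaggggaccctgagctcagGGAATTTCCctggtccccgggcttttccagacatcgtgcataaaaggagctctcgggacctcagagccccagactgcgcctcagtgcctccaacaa
Cxcl9: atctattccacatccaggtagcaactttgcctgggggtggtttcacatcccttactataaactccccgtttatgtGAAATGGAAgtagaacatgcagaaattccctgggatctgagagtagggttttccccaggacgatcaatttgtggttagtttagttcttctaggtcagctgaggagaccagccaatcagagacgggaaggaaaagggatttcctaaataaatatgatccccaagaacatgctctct
Cxcl10: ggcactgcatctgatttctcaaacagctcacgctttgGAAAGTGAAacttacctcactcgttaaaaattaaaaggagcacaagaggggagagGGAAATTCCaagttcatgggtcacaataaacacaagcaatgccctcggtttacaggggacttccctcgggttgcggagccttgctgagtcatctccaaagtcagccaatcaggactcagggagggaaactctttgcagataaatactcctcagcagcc

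The kappaB match begins at position -70 in Cxcl1, -96 in Cxcl2 and -158 in Cxcl10, and the interferon-stimulated match at -175 in Cxcl9 and -213 in Cxcl10, counted back from the start. In windows of this length the kappaB element was found in 1.07% of 32851 promoters in the table and in 4 of the 41 promoters of members, which covered 34 genes, and the interferon-stimulated element in 7.13% of promoters and in 6 of the 41. The other kappaB match was in Ccr3, and the other interferon-stimulated matches were in Ccl3, Ccl19, Ccr2 and Cxcl14. A match describes letters only, and a promoter without a match may hold another form of the element. No difference between the pairs is read from the matches.

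In CAST/EiJ, Ccl9 had the smallest p between diets. It stood at 13.7, 34.2, 14.8 and 15.3 CPM in the 44% fat libraries, against 4.34, 7.96, 4.77 and 5.49 CPM in the 10% fat libraries, with no overlap. The log2 fold change was 1.79 ± 0.45, with an edgeR adjusted p of 0.0686. It passed by DESeq2 (0.00364), by limma with library weights (0.0173) and in edgeR without NZO/HlLtJ 10% fat replicate 2 (0.0403) or 3 (0.0446), and the adjusted p ranged up to 0.224 over its alternatives. Ccl6 stood at 7.76, 19.8, 7.6 and 6.84 CPM on 44% fat, against 2.7, 5.54, 2.48 and 2.84 CPM on 10% fat, also without overlap, with a log2 fold change of 1.63 ± 0.47 and an adjusted p of 0.112 (0.013 by DESeq2). In both genes replicate 2 was the highest of its diet group. Macrophage markers moved with them, with 6 of 10 higher on 44% fat in edgeR and sums of 356, 567, 307 and 344 CPM on 44% fat, against 188, 243, 255 and 244 CPM on 10% fat. Luteal cell markers moved the same way, with sums of 5850, 6300, 7240 and 4960 CPM on 44% fat, against 2090, 3100, 3000 and 2030 CPM on 10% fat. These did not overlap, and 1 of the 6 luteal markers passed, with a median log2 fold change of 1.37. Theca and stroma markers did not overlap either, at 8410, 8980, 8290 and 8830 CPM on 44% fat, against 7490, 4050, 6660 and 6340 CPM. Of these 8 markers 0 passed, with a median of 0.47. Of all genes, 0.624% passed edgeR between diets in CAST/EiJ. The part of any of these lists in Ccl9 and Ccl6 was not tested. Ccl28 stood at 0.219, 0.305, 0.673 and 0.4 CPM on 44% fat, against 0.0704, 24.8, 2.09 and 0.263 CPM on 10% fat, which overlapped. Its log2 fold change was -4.08 ± 1.13 (0.103), and -1.02 without CAST/EiJ 10% fat replicate 2, and it passed by DESeq2 (0.00589) and without CAST/EiJ 10% fat replicate 1 (0.0348) or 4 (0.0424).

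In C57BL/6J, Ccl11 stood at 0.558, 0.704, 0.581 and 0.151 CPM in the 44% fat libraries, against 0.149, 0.0981 and 0.0624 CPM in the 10% fat libraries, a difference of 2.21 ± 0.88 on the log2 scale (edgeR adjusted p of 0.503). The lowest 44% fat library and the highest 10% fat library were nearly equal. Cxcl1 stood at 1.8, 6.59, 2.3 and 3.04 CPM on 44% fat, against 0.521, 2.16 and 0.562 CPM on 10% fat, a difference of 1.65 ± 0.68 (0.511), or 2.65 without C57BL/6J 10% fat replicate 2. Cxcl12 stood at 522, 101, 247 and 87.6 CPM on 44% fat, against 146, 77.2 and 116 CPM on 10% fat, a difference of 1.08 ± 0.45 (0.512), or 0.36 without C57BL/6J 44% fat replicate 1. The groups overlapped for Cxcl1 and Cxcl12.

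Averaged over strains, the members with the smallest p were Ccl17, Cx3cl1 and Cxcl13. Ccl17 averaged 0.0828 CPM on 44% fat against 0.206 on 10% fat in NZO/HlLtJ, 0.0442 against 0.142 in CAST/EiJ and 0.172 against 0.329 in C57BL/6J. Its mean was lower on 44% fat in each strain, with a difference of -1.26 ± 0.47 (edgeR adjusted p of 0.773). Cx3cl1 averaged 13.7 against 18.6, 14.8 against 17.2 and 20 against 21.5 CPM in the same order, a difference of -0.25 ± 0.13 (0.859). For Cxcl13 the difference was -0.70 ± 0.37 (0.862).

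Whether the diet effect differed between strains was tested directly. None of the 42 members passed for NZO/HlLtJ minus C57BL/6J (0% of all genes), CAST/EiJ minus C57BL/6J (0.614%) or NZO/HlLtJ minus CAST/EiJ (0.0149%). At an unadjusted p under 0.05 there were 7, 8 and 11 members, against 3.92%, 16% and 11.4% of all genes, in this order, and DESeq2 called 1, 3 and 2, against 0.0248%, 4.22% and 0.966% of all genes. Limma with library weights called 0, 3 and 1, against 0%, 6.5% and 0.966%. Ccl11 had the smallest p in both comparisons with C57BL/6J, with differences between diet effects of -4.67 ± 1.09 for NZO/HlLtJ (edgeR adjusted p of 1) and -3.51 ± 1.08 for CAST/EiJ (0.106). DESeq2 called both, with adjusted p of 0.0124 and 0.0173. The NZO/HlLtJ value was -2.47 when NZO/HlLtJ 10% fat replicates 1 and 4 were left out. In NZO/HlLtJ minus C57BL/6J, Ccl12 and Cxcl1 were next, at -2.77 ± 0.93 and -2.67 ± 0.90 (adjusted p of 1 each). In CAST/EiJ minus C57BL/6J, Ccl6 and Ccl9 were next, at 2.14 ± 0.67 (0.109) and 2.00 ± 0.65 (0.124). Between NZO/HlLtJ and CAST/EiJ, Ccl9, Ccl6 and Ccl28 had the smallest p, at -2.68 ± 0.64 (0.165), -2.38 ± 0.65 (0.201) and 4.91 ± 1.60 (0.276), and Ccl28 was at 1.84 without CAST/EiJ 10% fat replicate 2.

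Other genes of the pathway were followed as lists. Of 9 tested chemokine genes outside the naming rule, which include the scavenging receptors that remove chemokines without signalling, 6 passed between CAST/EiJ and C57BL/6J (2 higher, 4 lower), 7 between NZO/HlLtJ and CAST/EiJ (4 higher, 3 lower) and 1 lower between NZO/HlLtJ and C57BL/6J. The shares of all genes that passed in these comparisons, 46.8%, 48.1% and 23.9%, apply to each list that follows as well. Of the scavengers, Ackr1 and Ackr3 were higher in CAST/EiJ than in both other strains. Ackr1, the Duffy receptor of venular endothelium, averaged 0.694 ± 0.455 CPM in NZO/HlLtJ, 9.38 ± 4.34 in CAST/EiJ and 0.845 ± 0.886 in C57BL/6J, a log2 difference of 3.45 for CAST/EiJ minus C57BL/6J (edgeR adjusted p of 4.84e-05). Ackr3, which removes Cxcl12, averaged 16.4 ± 1.69 CPM in NZO/HlLtJ, 32.2 ± 6.23 in CAST/EiJ and 15.1 ± 2.03 in C57BL/6J, a difference of 1.08 (4.11e-09). Xcr1, the receptor of cross-presenting dendritic cells, and its ligand Xcl1 were lower in CAST/EiJ than in C57BL/6J, by 1.87 and 1.47, and so were Pf4, a platelet chemokine, by 2.04 and Ccrl2 by 1.91.

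Among 16 genes of NF-kappaB and inflammatory cytokines, 5 passed between CAST/EiJ and C57BL/6J (3 higher, 2 lower), 6 between NZO/HlLtJ and CAST/EiJ (2 higher, 4 lower) and 0 between NZO/HlLtJ and C57BL/6J. Among 19 genes of signalling below the receptors, 8 passed between CAST/EiJ and C57BL/6J (2 higher, 6 lower), 8 between NZO/HlLtJ and CAST/EiJ (4 of each) and 6 between NZO/HlLtJ and C57BL/6J (1 higher, 5 lower). Among 8 proteases that trim chemokines, 4 passed between CAST/EiJ and C57BL/6J (1 higher, 3 lower), 4 between NZO/HlLtJ and CAST/EiJ (2 of each) and 3 lower between NZO/HlLtJ and C57BL/6J. Dpp4, which inactivates Cxcl10 and Cxcl12 by clipping them, averaged 5.28 ± 1.07, 2.96 ± 0.725 and 6.8 ± 1.58 CPM in NZO/HlLtJ, CAST/EiJ and C57BL/6J. Between diets 1 gene of these lists passed, Dock2, an activator of Rac in leukocytes, which was higher on 44% fat in CAST/EiJ by 1.09 (edgeR adjusted p of 0.0397), and the diet effect on Rac2, a Rac of blood cells, was higher in CAST/EiJ than in C57BL/6J by 1.67 (0.0359).

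**Figure D5:**
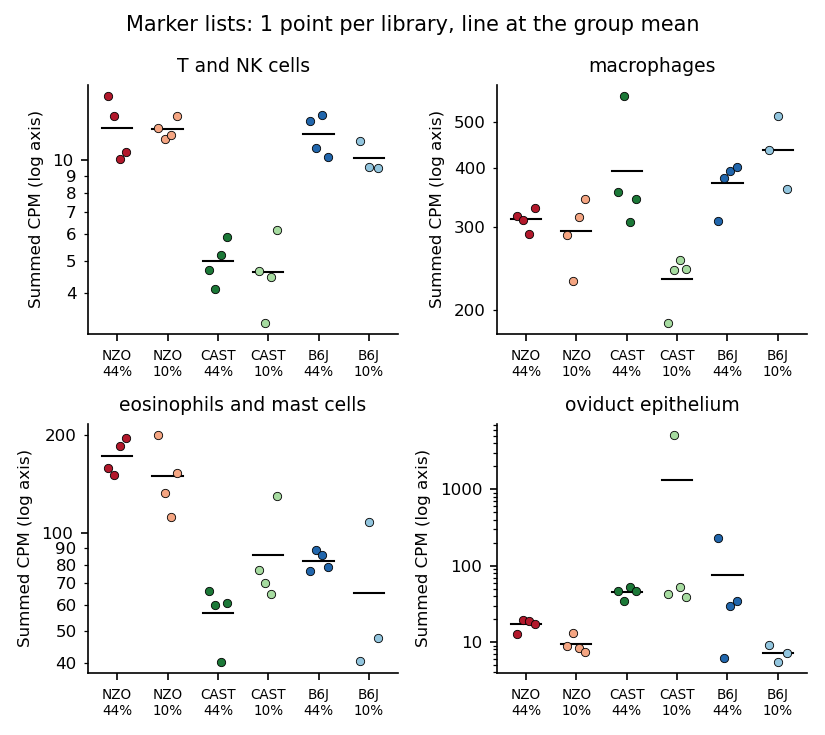
Summed CPM of 4 marker lists in each library on a log axis, with a line at the group mean. The 8 CAST/EiJ libraries lie between 3.26 and 6.18 CPM of T and NK cell markers, under the other strains, and 1 CAST/EiJ 10% fat library holds 5180 CPM of oviduct epithelium markers.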

How the data were processed

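Poly(A) RNA of 23 mouse ovaries was sequenced as 100 bp read pairs, per the labels' protocols. The authors deposited expected counts, that is estimated counts per gene of which 27.4% are not whole, and a log2 table that had been variance-stabilised. A deposited table with other gene positions was used only for annotation. The submitters' processing notes name GRCm38 and DESeq2, and the aligner, the counting tool and the use of strand are not given in the sources used here. Estimated counts were rounded. Genes were kept by edgeR's filterByExpr (minimum count 10, minimum total 15), which left 20189 of 24716, and scaled by TMM. One model with 6 group means over 23 libraries was fitted with edgeR 4.0.16 (robust quasi-likelihood test, R 4.3.3), and p-values were adjusted by the Benjamini-Hochberg method over the 20189 genes, calls being made under 0.05. Each standard error was obtained from the log2 fold change and its F statistic. There were 10 comparisons, 3 of diet within a strain, 1 of diet averaged over strains, 3 of strains and 3 of differences between diet effects.

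Groups came from the strain and diet labels. Replicates were numbered in accession order, and no pair of libraries agreed within sampling noise (chi-square per degree of freedom of at least 11.74 in 33 pairs). A count of 3 in a library equals 0.0644 to 0.0937 CPM, and such limits cover counting error only. Alternatives were relative log expression scaling, no filter, a term for the series of sample numbers, limma 3.58.1 with voom and library weights, limma on the deposited log2 values, DESeq2 1.42.0, fits of only the groups compared, both libraries with the most oviduct markers left out and each library left out. Leaving out NZO/HlLtJ 10% fat replicates 1 and 4 was added after seeing the data. The fits were tested on simulated data.

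The members and gene lists were chosen with earlier results of these data known. Full statistics were given for members past the threshold, at most 8 per comparison by smallest p, and otherwise for the 3 members with the smallest p. Other members are given by level or difference. Outlying libraries were sought on log2 CPM with a prior count of 2. Promoters came from a RefSeq table of GRCm38.p6 and exon overlaps and shared 50-base stretches from GENCODE M21. Some genes that entered the counts are not reported here.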

Additional observations from a re-analysis of the deposited data

Results flagged for a closer look

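Libraries that stood apart in their group were sought on the log2 CPM of the 29 members that averaged at least 1 CPM in a group, in the 5 groups of 4 libraries. In 11 of 145 pairs of member and group, the gap of the highest or lowest library to the next, as a share of the group's range, was above Dixon's 95% critical value for 4 values. Chance gives about 5% of pairs, and no explanation was weighed. For Ccl11 it was NZO/HlLtJ 44% fat replicate 3 at 0.516 CPM, with the other libraries of that group at 1.06 to 1.21 CPM (a gap of 0.841 of the range), and C57BL/6J 44% fat replicate 4 at 0.151 CPM, with the other libraries of that group at 0.558 to 0.704 CPM (a gap of 0.837 of the range). For Ccl21a it was CAST/EiJ 10% fat replicate 1 at 128 CPM, with the other libraries of that group at 117 to 118 CPM (a gap of 0.861 of the range). For Ccl5 it was CAST/EiJ 44% fat replicate 3 at 0 CPM, with the other libraries of that group at 0.0999 to 0.122 CPM (a gap of 0.888 of the range). For Ccl6 it was CAST/EiJ 44% fat replicate 2 at 19.8 CPM, with the other libraries of that group at 6.84 to 7.76 CPM (a gap of 0.882 of the range), and CAST/EiJ 10% fat replicate 2 at 5.54 CPM, with the other libraries of that group at 2.48 to 2.84 CPM (a gap of 0.834 of the range). For Ccl8 it was CAST/EiJ 10% fat replicate 1 at 0 CPM, with the other libraries of that group at 0.124 to 0.158 CPM (a gap of 0.875 of the range). For Ccl9 it was CAST/EiJ 44% fat replicate 2 at 34.2 CPM, with the other libraries of that group at 13.7 to 15.3 CPM (a gap of 0.882 of the range). For Cxcl9 it was NZO/HlLtJ 10% fat replicate 3 at 1.09 CPM, with the other libraries of that group at 1.93 to 2.01 CPM (a gap of 0.93 of the range). For Cxcr4 it was CAST/EiJ 44% fat replicate 1 at 11.2 CPM, with the other libraries of that group at 17.4 to 18.6 CPM (a gap of 0.868 of the range). For Cxcr6 it was NZO/HlLtJ 10% fat replicate 3 at 0.782 CPM, with the other libraries of that group at 2.01 to 2.39 CPM (a gap of 0.845 of the range).

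More flags fell on CAST/EiJ than on another strain, but the flags were few, and those of Ccl5 and Ccl8 were libraries at 0 CPM. No difference between strains is read from them. CAST/EiJ 44% fat replicate 2 was high in both Ccl6 and Ccl9, and it also held the highest sum of macrophage markers, 567 CPM, against 307 to 356 CPM in the other libraries of its group. NZO/HlLtJ 10% fat replicate 3 was low in both Cxcl9 and Cxcr6.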

How the results depend on the processing

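No paired analysis was possible because the labels give no replicate numbers, and the numbers used here follow accession order. The count of members called between diets in CAST/EiJ was 0 in the main test, 1 with voom weights, 3 with DESeq2 and between 0 and 1 when each library was left out in turn, and in C57BL/6J it was 1 with voom weights. Between NZO/HlLtJ and C57BL/6J, 7 members were called, 12 with voom weights and 2 without NZO/HlLtJ 10% fat replicates 1 and 4. For differences between diet effects, DESeq2 called 1 for NZO/HlLtJ minus C57BL/6J, voom and DESeq2 3 each for CAST/EiJ minus C57BL/6J, and voom 1 and DESeq2 2 for NZO/HlLtJ minus CAST/EiJ, where the main test called 0. With voom weights the Ccl28 diet difference in CAST/EiJ turned to 0.29, and the difference of its diet effect between NZO/HlLtJ and CAST/EiJ to -0.54. The cause was not tested. Counts of members called between CAST/EiJ and either other strain stayed within 1.5 times in every setting run, at 17 to 26 and 19 to 22. For these ranges and for fits without some libraries, the shares of all genes called are not given here. Leaving out libraries also changes how many of all genes pass, so these counts are descriptions.

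Some single calls depended on the setting. Without NZO/HlLtJ 10% fat replicates 1 and 4, 5 calls between NZO/HlLtJ and C57BL/6J were lost. The fold changes stayed close for Ccl9 (-1.12 against -1.21, adjusted p of 0.0603), Ccl28 (-2.84 against -2.76, 0.0672) and Ccl6 (-0.94 against -1.03, 0.114) and were smaller for Ccl12 (1 against 1.55, 0.187) and Ccl24 (1.13 against 1.96, 0.163). That of Cxcl10 between NZO/HlLtJ and CAST/EiJ was lost at 0.97 against 1.17 (0.0611). Depth limits members under 1 CPM, where 1 library can carry a group mean. Relative log expression scaling changed no direction of a strain call.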
